A study of Mus musculus with 16 samples.

Results

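Heme synthesis was followed in sorted mouse erythroblasts through 9 genes, 7 that encode enzymes of the pathway (Alas2, Alad, Uros, Urod, Cpox, Ppox and Fech) and 2 that encode transporters of the inner mitochondrial membrane (Slc25a38 and Abcb10). They were taken by gene name from the deposited counts, which list 46078 genes in each library, and all 9 were found and passed the filter on low counts in every comparison. The libraries came from polychromatic erythroblasts (Poly-E) and the later orthochromatic erythroblasts (Ortho-E), sorted from bone marrow at steady state by Ter119 and CD44 as cells negative for propidium iodide. The mice were wild-type (Ypel4+/+) or Ypel4-null (Ypel4-/-). The labels give both genotypes the strain C57BL/6N-A<tm1Brd> with the allele Ypel4<tm1a(EUCOMM)Wtsi>/WtsiIeg, a conventional trap allele that is not restricted to a cell type and for which Ypel4-/- mice are homozygous. Neither age nor a treatment is given. Each of the 4 groups held 4 libraries, 1 from each of 4 mice, and the same replicate number in Poly-E and Ortho-E of a genotype was read as the same mouse.

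Heme is the iron-containing ring that binds oxygen in hemoglobin, and erythroblasts make more of it than other cells. Synthesis starts in the mitochondrion, where ALAS2, the erythroid 5-aminolevulinate synthase and the rate-limiting enzyme, joins glycine to succinyl-CoA, and SLC25A38 is the carrier needed for the glycine. The middle steps, ALAD, UROS and UROD among them, take place in the cytosol, and the last (CPOX, PPOX and FECH) in mitochondria, where ferrochelatase (FECH) inserts iron into protoporphyrin. ABCB10 is an ATP-binding transporter that erythroid cells need for hemoglobin production. Inherited loss of several of these genes causes sideroblastic anemia or a porphyria.

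The genes lie on 8 chromosomes of GRCm38. Alas2 (ENSMUSG00000025270) is at chrX:150547375-150570638 on the + strand. Alad (ENSMUSG00000028393) at chr4:62509169-62519918 and Urod (ENSMUSG00000028684) at chr4:116989965-116994413 share chromosome 4, both on the - strand. Uros (ENSMUSG00000030979) is at chr7:133686243-133710072 on the - strand, Cpox (ENSMUSG00000022742) at chr16:58670208-58680391 on the + strand and Ppox (ENSMUSG00000062729) at chr1:171275990-171281186 on the - strand. Fech (ENSMUSG00000024588) is on the - strand of chromosome 18. Slc25a38 (ENSMUSG00000032519) is at chr9:120110374-120124504 on the + strand and Abcb10 (ENSMUSG00000031974) at chr8:123952459-123983122 on the - strand. Alas2, Uros, Ppox and Abcb10 each overlap a gene on the other strand (Apex2 and Mir3620 for Alas2, Bccip for Uros, B4galt3 for Ppox, Gm20388 for Abcb10). Strand was not used in counting and reads that overlapped more than 1 gene were not counted. The overlaps are of whole gene spans, and shared exons were not looked for. Reads may thus be missing from the values of these 4 genes where exons are shared.

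Library totals ranged from 2670173 to 12451234 counts, and none of the 9 genes had fewer than 845 counts in any library. Ypel4, the gene that the trap allele targets, averaged 579 CPM (SD 105, n = 4) in wild-type Poly-E and 15.95 (SD 5.75, n = 4) in Ypel4-null Poly-E libraries, and 4939 (SD 516, n = 4) and 204 (SD 22.8, n = 4) in Ortho-E. CPM are counts scaled to a library of 1000000 after TMM, a method of edgeR that sets library sizes so that most genes do not differ. The erythroblast markers summed to between 30508 and 37166 CPM in Poly-E and between 103782 and 122879 CPM in Ortho-E libraries, and 8 of the 9 reached a mean of 10 CPM (all but Cd44, the surface protein whose loss the sort follows). They did not move together: 5 were called higher and 3 lower in Ortho-E in Ypel4+/+ and 5 and 2 in Ypel4-/- mice. In Ypel4+/+ mice they ran from -1.27 (log2, Cd44) to 2.64 (Hba-a2). Markers of neutrophils summed to 0.887 to 4.46 CPM in Poly-E and 1.71 to 17.9 in Ortho-E, and those of monocytes and macrophages to 1.55 to 3.44 and 3.61 to 7.18. T cell markers summed to at most 0.449. Of the 7 neutrophil markers, 2 of 4 tested were called higher in Ortho-E in Ypel4+/+ and 4 of 5 tested in Ypel4-/- mice. Of the monocyte and macrophage markers it was 0 of 3 and 3 of 5 tested, and of the B cell markers 1 of 4 and 4 of 4. More markers of the neutrophil and macrophage lists passed the filter on low counts in Ypel4-/- mice. Over all genes tested, 26.4% and 29.5% were called higher and 32.1% and 31.5% lower. Ptprc, carried by all leukocytes, was at 1.98 to 3.85 CPM in Poly-E and 2.85 to 6.94 in Ortho-E, and its difference was 0.50 (log2, adjusted p = 0.182) and 1.34 (adjusted p = 0.000125, edgeR). Those of B cells, led by Ighm, ranged from 22.5 to 47.6 CPM in Poly-E and from 33.0 to 70.9 in Ortho-E. The megakaryocyte list was at 17.2 to 24.8 CPM in Poly-E and 79.8 to 103 in Ortho-E, which was almost all Itga2b. The part of these other cells in the differences was not tested. In bulk libraries such as these, fewer cells of a type and less RNA per cell cannot be told apart.

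Alas2 is controlled at its mRNA as well as at its gene. When iron is scarce, iron regulatory proteins bind a hairpin near the 5' end of the message, the iron-responsive element, and hold back its translation. The element is shown because it was found in Alas2 alone of the 9, with the loop of the hairpin in capitals:
Alas2 iron-responsive element: gttcgtcctCAGTGCagggcaac
Its 23 bases begin at base 87 of the transcript Alas2-201, whose start codon is at base 127, and at base 3 of Alas2-202, whose start codon is at base 43. The search was for a C, 5 bases, the loop letters CAGTGN and 5 bases that pair with the first 5. It covered the first 200 bases of annotated transcripts, with A, C or T for N and with G-T pairs allowed. A match was found in 24 of 21901 coding genes (0.11%), and in Alas2 alone among the 9.

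Promoters are shown for the member with the largest difference between the populations (Alas2), for an enzyme with a like difference (Urod) and for an enzyme that was not called (Cpox). GATA1, the main transcription factor of erythroid cells, binds the letters AGATAA or TGATAA. Matches to these on either strand, which do not overlap each other here, are in capitals. The sequences are from RefSeq (GRCm38.p6) and end at the base before the gene start in the files:
Alas2 promoter, chrX:150547167-150547374, + strand: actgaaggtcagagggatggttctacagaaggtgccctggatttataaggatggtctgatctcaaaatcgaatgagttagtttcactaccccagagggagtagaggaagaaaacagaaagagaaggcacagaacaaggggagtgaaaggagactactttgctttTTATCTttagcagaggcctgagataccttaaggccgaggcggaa
Urod promoter, chr4:116994414-116994663, - strand: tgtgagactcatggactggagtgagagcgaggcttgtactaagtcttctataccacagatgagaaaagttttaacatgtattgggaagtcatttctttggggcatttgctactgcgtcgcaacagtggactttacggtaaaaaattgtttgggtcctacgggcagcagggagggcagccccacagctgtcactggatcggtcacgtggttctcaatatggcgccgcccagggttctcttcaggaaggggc
Cpox promoter, chr16:58669958-58670207, + strand: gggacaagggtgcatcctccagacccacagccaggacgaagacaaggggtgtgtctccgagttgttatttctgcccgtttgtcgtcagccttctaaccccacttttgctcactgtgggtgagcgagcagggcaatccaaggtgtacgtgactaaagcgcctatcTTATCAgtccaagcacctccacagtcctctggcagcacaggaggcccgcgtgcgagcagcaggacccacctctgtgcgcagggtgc
The match in Alas2 (TTATCT) begins 44 bases before the gene start and that in Cpox (TTATCA) 86 bases before it, and the Urod stretch holds none. RefSeq windows from 250 bases before to 50 after the gene start were matched for 8 of the 9 genes. AGATAA was in 11.2% of all 32851 such windows and in those of Alas2 and Cpox, and TGATAA in 9.05% of all and in those of Cpox and Uros. CACCC, the core of the letters that KLF1 binds, was in 57.5% of all windows and in 6 of the 8 genes. A gene was counted if any of its windows held a match, and Alad and Uros had more than 1 window. The counts of genes and the shares of windows are thus not on the same scale. In Uros TGATAA was in the window chr7:133702451-133702750 and not in chr7:133709246-133709545, and in Alad CACCC was likewise in 1 window only. A match to letters is a description and not evidence of a bound site.

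The first comparison asked how the 9 genes differ between Poly-E and Ortho-E. Relative to most other genes, 7 of the 9 were higher in Ortho-E in Ypel4+/+ mice and the same 7 in Ypel4-/- mice, and none was lower (edgeR's quasi-likelihood test, Benjamini-Hochberg adjusted over all genes tested, threshold 0.05). In these comparisons 58.5% and 61% of all genes tested were called, 26.4% and 29.5% as higher and 32.1% and 31.5% as lower, so that a call alone does not set a gene apart. Alas2, Fech and Urod rose most, Ppox, Abcb10, Uros and Slc25a38 rose less, and Alad and Cpox were not called. The fits did not pair the libraries of a mouse. With the replicate number as a block, Alad and Cpox were called lower in Ypel4+/+ and Alad in Ypel4-/- mice. The blocked fits called 33.4% and 32.4% of all genes lower. Each of the 7 had every Ortho-E library above every Poly-E library in both genotypes, which held for 22.5% and 22.9% of all genes.

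The direction for 3 of the 7, and the call for Ppox, depends on the scale. TMM assumes that most genes do not differ, and with it the median gene changed by -0.19 (log2) in Ypel4+/+ and -0.09 in Ypel4-/- mice. Each fit set TMM over its own libraries, whereas the CPM given here were scaled over all 16. With all 16 libraries in a single fit the median gene changed by -0.19 and -0.21. The fold changes of Ypel4-/- mice therefore lie above the ratios of their CPM, and fold changes of the genotypes are not on the same scale. On library totals alone, which give each gene's share of the counts, the median gene changed by -1.45 and -1.47, only 10.4% and 11.2% of genes were called higher, and 60.3% and 60.9% lower. On that scale Alas2, Fech and Urod were still higher in Ortho-E, Abcb10, Uros and Slc25a38 were lower, Ppox was not called, and Alad and Cpox were lower, so that 3 of the 9 were higher and 5 lower in each genotype. The distance of each member from the median gene was nearly the same on both scales. It is given below for Alas2, Abcb10, Uros, Slc25a38, Alad and Cpox. The libraries hold no measure of RNA per cell, and which scale is nearer to the amount per cell was not tested.

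**Figure D1:**
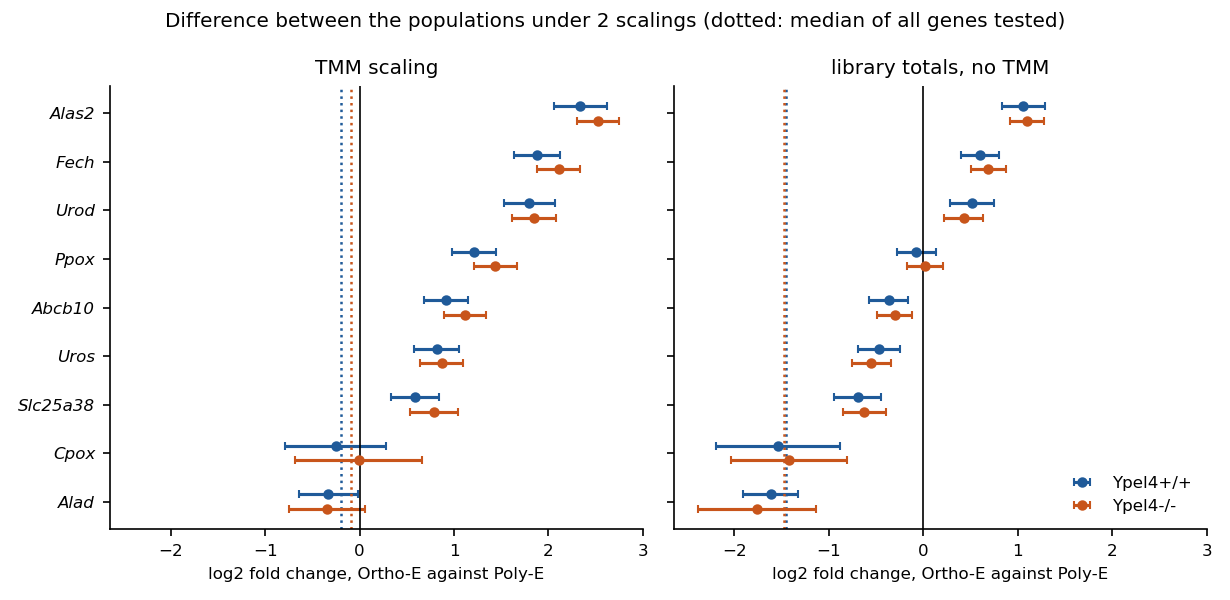
Log2 difference between Ortho-E and Poly-E for the 9 genes, with edgeR's 95% confidence intervals (bars), in Ypel4+/+ (blue) and Ypel4-/- (orange) mice, n = 4 libraries a group, after TMM scaling and on library totals; dotted lines mark the median of all genes. The order of the genes is alike in both panels, but Abcb10, Uros and Slc25a38 lie above 0 after TMM and below 0 on library totals, and Ppox moves to about 0.

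Alas2, the gene for the first and rate-limiting enzyme, had the highest level and the largest rise of the 9. In Poly-E it was at 4474, 3548, 3387 and 2891 CPM in Ypel4+/+ replicates 1 to 4 and at 3068, 3691, 3419 and 3049 in Ypel4-/- replicates. In Ortho-E it was at 19326, 18049, 16072 and 16509 CPM in Ypel4+/+ and at 16139, 16319, 17253 and 16746 in Ypel4-/- replicates. The populations were far apart and the genotypes overlapped within each. The rise was 5.06-fold in Ypel4+/+ (95% interval 4.15 to 6.16, log2 2.34, SE 0.14, adjusted p = 7.43e-14 from edgeR) and 5.74-fold in Ypel4-/- mice (log2 2.52, SE 0.11, adjusted p = 1.38e-19). It was 2.53 and 2.61 (log2) above the median gene, past 92.3% and 92.0% of all genes tested. On library totals the difference was 1.06 and 1.10 (log2), still called.

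Fech, which encodes the enzyme of the last step, was at 2217, 1969, 2233 and 1995 CPM in Ypel4+/+ and 1731, 2125, 2058 and 2060 in Ypel4-/- Poly-E libraries. In Ortho-E it was at 7630, 6844, 7466 and 7968 CPM in Ypel4+/+ and 6543, 7566, 8030 and 8055 in Ypel4-/- libraries. No Ortho-E library came near the Poly-E values, and replicate 1 was the lowest of the Ypel4-/- libraries in both populations. The rise was 3.68-fold in Ypel4+/+ (95% interval 3.11 to 4.35, log2 1.88, SE 0.12, adjusted p = 2.36e-13 from edgeR) and 4.31-fold in Ypel4-/- mice (log2 2.11, SE 0.11, adjusted p = 3.31e-17). On library totals the difference was 0.60 and 0.69 (log2), still called.

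Urod, whose enzyme trims uroporphyrinogen in the cytosol, was at 818, 697, 655 and 586 CPM in Ypel4+/+ and 649, 794, 649 and 598 in Ypel4-/- Poly-E libraries. In Ortho-E it reached 2668, 2419, 2040 and 2145 CPM in Ypel4+/+ and 2103, 2052, 2122 and 2203 in Ypel4-/- libraries. In Ypel4+/+ mice replicates 1 and 2 were above replicates 3 and 4 in both populations. The rise was 3.48-fold in Ypel4+/+ (95% interval 2.88 to 4.20, log2 1.80, SE 0.13, adjusted p = 4.84e-12 from edgeR) and 3.60-fold in Ypel4-/- mice (log2 1.85, SE 0.11, adjusted p = 1.03e-15). On library totals it was 0.52 and 0.43 (log2), still called.

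**Figure D2:**
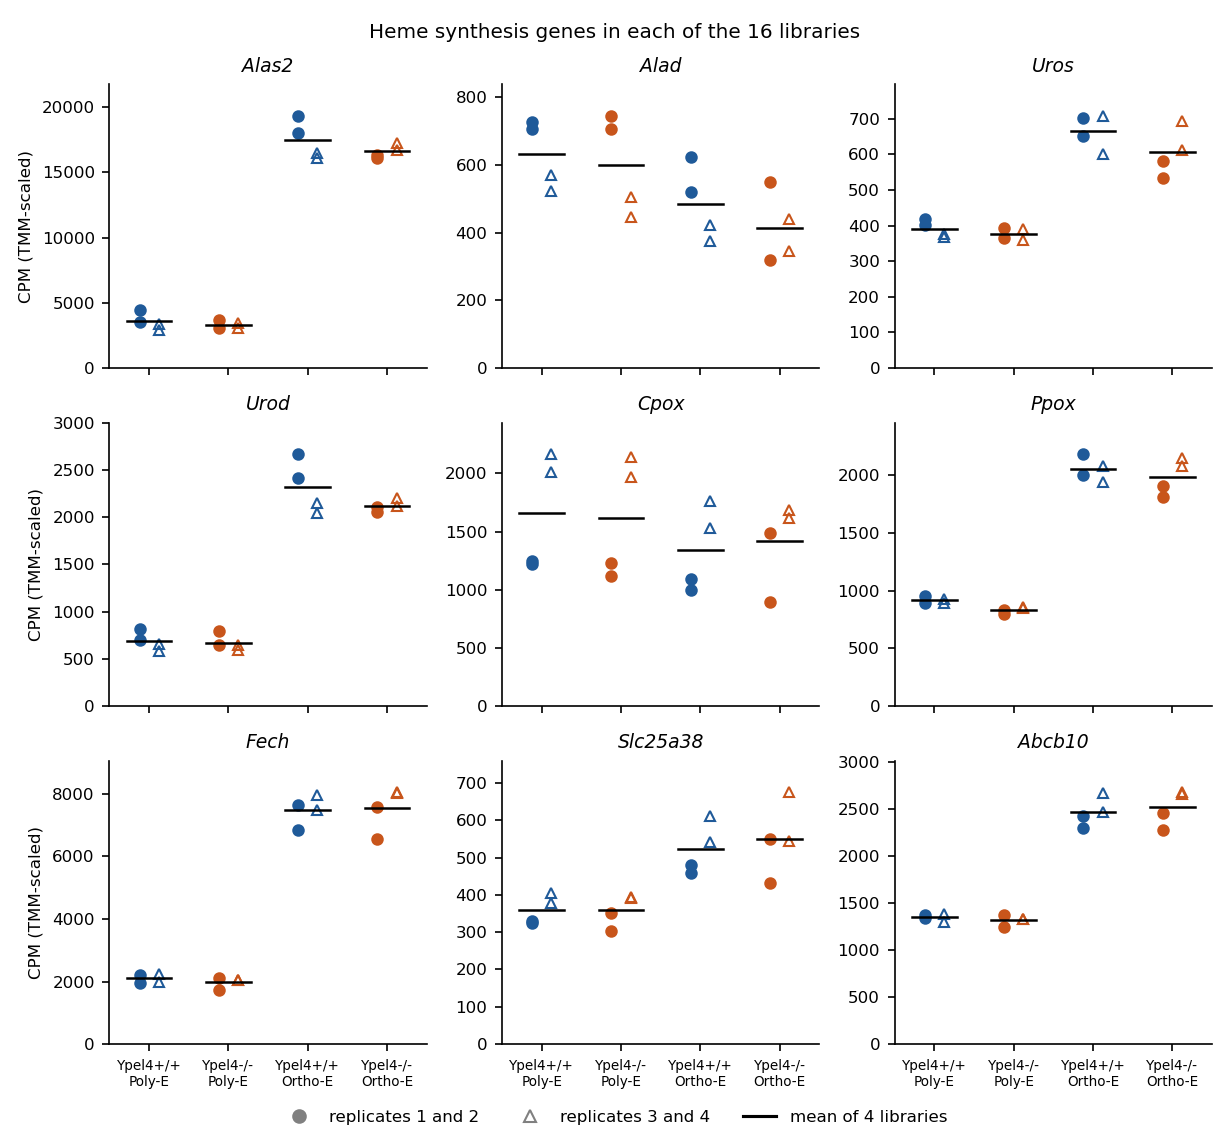
CPM after TMM scaling (linear axes from 0, a scale for each gene) of each of the 9 genes in the 16 libraries by group, with replicates 1 and 2 as filled circles, replicates 3 and 4 as open triangles and a line at the mean of 4. Alas2, Fech, Urod and Ppox lie well apart between Poly-E and Ortho-E, while the Alad and Cpox points overlap; on library totals Ppox does not differ and Abcb10, Uros and Slc25a38 are lower in Ortho-E.

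Ppox encodes the enzyme before ferrochelatase. It was at 951, 895, 932 and 894 CPM in Ypel4+/+ and 799, 832, 850 and 858 in Ypel4-/- Poly-E libraries, and at 2186, 2005, 1944 and 2081 in Ypel4+/+ and 1817, 1910, 2081 and 2153 in Ypel4-/- Ortho-E libraries. Replicates lay close together in every group. The rise was 2.31-fold in Ypel4+/+ (95% interval 1.97 to 2.72, log2 1.21, SE 0.11, adjusted p = 5.12e-10 from edgeR) and 2.71-fold in Ypel4-/- mice (log2 1.44, SE 0.11, adjusted p = 2.41e-13), whereas on library totals the difference was -0.073 (adjusted p = 0.519) and 0.02 (adjusted p = 0.866). Its share of the counts was 0.138% and 0.131% in Ypel4+/+ Poly-E and Ortho-E and 0.130% and 0.132% in Ypel4-/-, while the median gene was lower in Ortho-E. Its difference was above that of 78.4% and 79.5% of all genes tested.

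Abcb10 was at 1342, 1376, 1384 and 1298 CPM in Ypel4+/+ and 1246, 1368, 1334 and 1325 in Ypel4-/- Poly-E libraries, and at 2426, 2296, 2468 and 2673 in Ypel4+/+ and 2275, 2454, 2653 and 2678 in Ypel4-/- Ortho-E libraries. The rise was 1.89-fold (95% interval 1.61 to 2.22, log2 0.92, SE 0.11, adjusted p = 8.01e-08 from edgeR) in Ypel4+/+ and 2.17-fold (log2 1.12, SE 0.11, adjusted p = 7.31e-11) in Ypel4-/- mice. On library totals the sign turned, to -0.37 and -0.30 (log2), both called. Relative to the median gene Abcb10 was 1.11 and 1.21 (log2) higher.

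Uros, which closes the tetrapyrrole ring, was at 418, 401, 376 and 368 CPM in Ypel4+/+ and 364, 394, 391 and 360 in Ypel4-/- Poly-E libraries, and at 651, 701, 602 and 708 in Ypel4+/+ and 533, 582, 613 and 694 in Ypel4-/- Ortho-E libraries. The rise was 1.76-fold (log2 0.82, SE 0.12, adjusted p = 7.33e-07 from edgeR) and 1.83-fold (log2 0.87, SE 0.11, adjusted p = 2.94e-08), against -0.47 and -0.55 (log2) on library totals, both called. Slc25a38, the glycine carrier, was at 329, 325, 405 and 378 CPM in Ypel4+/+ and 304, 350, 394 and 392 in Ypel4-/- Poly-E libraries, and at 458, 481, 542 and 610 in Ypel4+/+ and 432, 549, 545 and 676 in Ypel4-/- Ortho-E libraries. Its rise was the smallest of the 7 called, 1.51-fold (log2 0.59, SE 0.12, adjusted p = 0.000167 from edgeR) and 1.73-fold (log2 0.79, SE 0.13, adjusted p = 1.52e-06), against -0.69 and -0.63 (log2) on library totals, both called. Relative to the median gene, Uros was 1.01 and 0.957 (log2) and Slc25a38 0.783 and 0.880 higher in Ortho-E.

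Alad, the cytosolic enzyme of the second step, was at 727, 706, 570 and 524 CPM in Ypel4+/+ and 707, 745, 445 and 505 in Ypel4-/- Poly-E libraries. In Ortho-E it was at 624, 519, 377 and 423 CPM in Ypel4+/+ and 551, 320, 346 and 439 in Ypel4-/- libraries. The populations overlapped, and the difference was -0.33 (log2, SE 0.15, adjusted p = 0.0637 from edgeR) in Ypel4+/+ and -0.34 (SE 0.19, adjusted p = 0.132) in Ypel4-/- mice. Cpox, whose enzyme acts between the membranes of the mitochondrion, was at 1217, 1251, 2166 and 2016 CPM in Ypel4+/+ and 1116, 1225, 2138 and 1969 in Ypel4-/- Poly-E libraries. In Ortho-E it was at 994, 1089, 1532 and 1762 CPM in Ypel4+/+ and 891, 1486, 1682 and 1616 in Ypel4-/- libraries. Its difference was -0.25 (log2, SE 0.24, adjusted p = 0.396) and -0.01 (SE 0.29, adjusted p = 0.977), with a 95% interval of 0.578 to 1.22 in fold in Ypel4+/+ mice. Alad was called lower when Ypel4+/+ Ortho-E replicate 1 was left out (-0.47), and likewise without Ypel4-/- Ortho-E replicate 1 (-0.56) or Poly-E replicate 3 (-0.46).

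The wide spread of Alad and Cpox followed the replicate numbers. Cpox was higher in replicates 3 and 4 than in replicates 1 and 2 in all 4 groups, by 1.69 and 1.58 times in Ypel4+/+ Poly-E and Ortho-E and by 1.75 and 1.39 times in Ypel4-/-. Alad went the other way, at 0.763 and 0.700 times in Ypel4+/+ and 0.655 and 0.901 times in Ypel4-/-, the last with overlapping values. The split was not particular to these genes: replicates 3 and 4 did not overlap 1 and 2 in 58.7%, 50.7%, 53.8% and 43.5% of 4835 genes with a mean of at least 10 CPM (Ypel4+/+ Poly-E and Ortho-E, then Ypel4-/-). With so few libraries on each side, a full split also arises often by chance, and the share that chance gives was not measured. The labels do not say what separates the replicates.

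Compared within mice, both genes were lower in Ortho-E in most animals, on library totals as well. The median gene was lower too, at -0.19 and -0.09 (log2) with TMM and -1.45 and -1.47 on library totals. Relative to it, Alad was at -0.14 and -0.25 and Cpox at -0.06 and 0.08 (TMM) in Ypel4+/+ and Ypel4-/- mice. The difference of Alad was above that of 46.7% and 44.3% of all genes tested, and that of Cpox above 48.6% and 51.9%. Neither gene was thus set apart from most others. Alad was lower in Ortho-E than in Poly-E of the same mouse in 8 of 8 mice, by -0.22, -0.44, -0.60 and -0.31 (log2) in Ypel4+/+ mice 1 to 4 and by -0.36, -1.22, -0.36 and -0.20 in Ypel4-/- mice. Cpox was lower in 7 of 8, by -0.29, -0.20, -0.50 and -0.19 in Ypel4+/+ and by -0.33, 0.28, -0.35 and -0.29 in Ypel4-/- mice. The largest drop of Alad and the only higher value of Cpox came from the same animal, Ypel4-/- mouse 2. Its Poly-E library had levels like those of replicate 1 (Cpox 1225 CPM, Alad 745), and its Ortho-E library levels like those of replicates 3 and 4 (Cpox 1486, Alad 320). Whether these libraries are from 1 mouse rests on the labels alone and is in doubt. Without this mouse, Alad and Cpox were each lower in 7 of 7 mice. With the replicate number as a block, Alad and Cpox were called lower in Ypel4+/+ (adjusted p = 0.000215 and 0.00839 from edgeR) and Alad alone in Ypel4-/- mice (adjusted p = 0.000215, Cpox 0.877), in fits that called 33.4% and 32.4% of all genes lower. Without Ypel4-/- mouse 2 the block gave -0.16 for Alad (adjusted p = 0.0974) and -0.17 for Cpox (adjusted p = 0.0706).

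**Figure D3:**
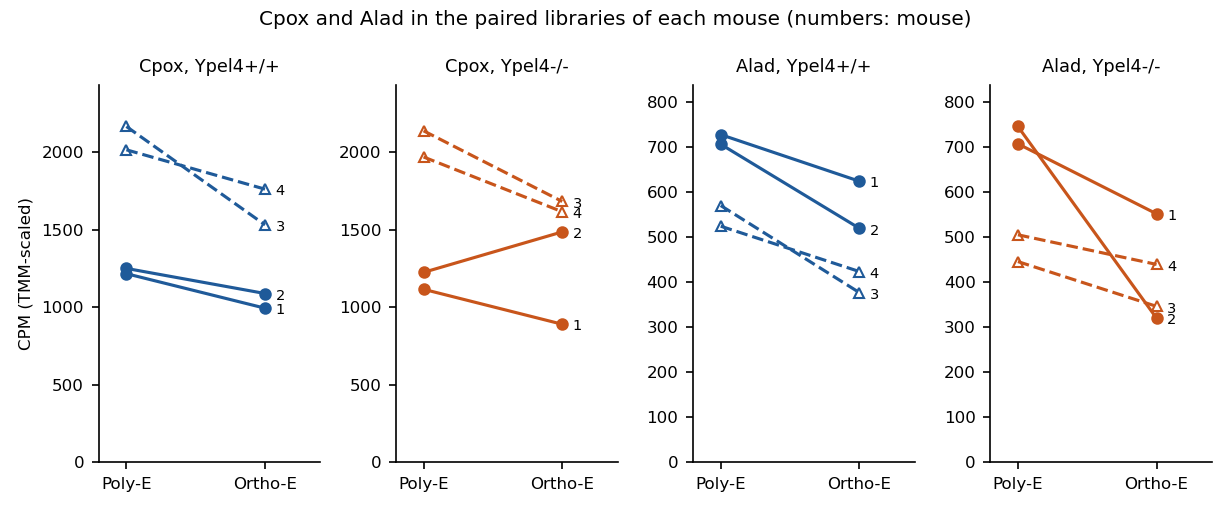
CPM after TMM scaling of Cpox and Alad in Poly-E and Ortho-E, with a line joining the libraries read as the same mouse and its replicate number, for Ypel4+/+ (blue) and Ypel4-/- (orange) mice. Mice 3 and 4 start higher for Cpox and lower for Alad than mice 1 and 2, and all lines fall except Cpox in Ypel4-/- mouse 2.

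Together the 9 genes took 1.76% ± 0.0557 (SD, n = 4) of all counts in Ypel4+/+ and 1.73% ± 0.0698 (SD, n = 4) in Ypel4-/- Poly-E, and 2.23% ± 0.0506 (SD, n = 4) and 2.24% ± 0.0309 (SD, n = 4) in Ortho-E. These shares do not use TMM. Alas2 alone went from 0.536% and 0.516% to 1.12% and 1.11%, and the other 8 genes from 1.22% and 1.21% to 1.11% and 1.14%. Thus Alas2 was 30.5% and 29.9% of the Poly-E counts of the 9 genes, against 50.2% and 49.3% of those of Ortho-E. Fech went from 0.316% to 0.478% in Ypel4+/+ mice, and Cpox from 0.251% in Ypel4+/+ Poly-E to 0.0861% in Ypel4+/+ and 0.0933% in Ypel4-/- Ortho-E. Globin genes took 5.84% and 5.78% of Poly-E counts, against 12.5% and 11.3% of Ortho-E counts.

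**Figure D4:**
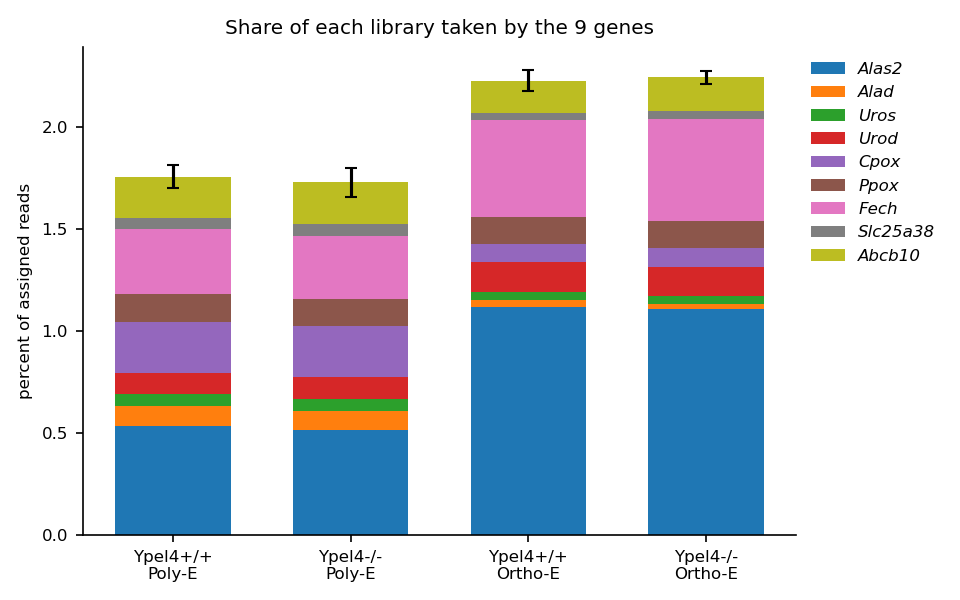
Percent of all counts of a library taken by each of the 9 genes, stacked, as the mean of 4 libraries in each group; error bars are the SD of the total. The total goes from 1.76% and 1.73% in Poly-E to 2.23% and 2.24% in Ortho-E, and the Alas2 segment is the one that widens most.

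Per kilobase of the gene model's exons, Alas2 was first in every group, at 1488 CPM per kb in Ypel4+/+ Poly-E and 7278 in Ypel4+/+ Ortho-E, followed by Fech at 725 and 2577. The order below them differed between the populations. In Ypel4+/+ Poly-E it was Cpox (522), Alad (338), Abcb10 (314), Urod (266), Ppox (203), Slc25a38 (131) and Uros (109.3). In Ypel4+/+ Ortho-E it was Urod (895), Abcb10 (573), Ppox (455), Cpox (422), Alad (260), Slc25a38 (190) and Uros (186). Neighbours whose libraries overlapped were, in Poly-E, each pair from Fech to Urod, and in Ortho-E, each pair from Ppox to Uros. Urod thus moved from the sixth place to the third and Cpox from the third to the sixth. In Ypel4-/- mice the order was the same in Poly-E, and in Ortho-E Cpox (445) and Ppox (441) changed places, with overlapping libraries.

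The genotype comparison asked whether loss of Ypel4 changed these genes. None of the 9 was called in Poly-E or in Ortho-E (lowest adjusted p = 1.00 and 0.995, edgeR), where 0.00807% and 0.0285% of all genes were called. In Poly-E the differences of Ypel4-/- from Ypel4+/+ ran from -0.14 (log2, Ppox, 95% interval -0.33 to 0.06) to 0.00 (Slc25a38), and in Ortho-E from -0.21 (Alad, -0.77 to 0.34) to 0.10 (Cpox). For Alas2 they were -0.11 (-0.37 to 0.14) in Poly-E and -0.06 (-0.24 to 0.12) in Ortho-E. The widest interval in Poly-E was that of Cpox, -0.68 to 0.60. Each interval holds 0. Of the marker lists, the summed B cell markers did not overlap between the genotypes in Ortho-E. They were at 33.0 to 46.04 CPM in Ypel4+/+ and 50.1 to 70.9 in Ypel4-/- libraries. None of the 4 B cell markers was called there (lowest adjusted p = 0.995, edgeR), while 3 had an unadjusted p below 0.05. The share of all genes that do not overlap in that comparison is not given here. The part of these markers was not tested.

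Ppox in Poly-E was the only case in which the genotypes did not overlap, with all Ypel4-/- libraries (799 to 858 CPM) below all Ypel4+/+ libraries (894 to 951), as did 0.791% of all genes in that comparison. As a share of the counts it was 0.138% ± 0.000284 (SD, n = 4) in Ypel4+/+ and 0.130% ± 0.00226 (SD, n = 4) in Ypel4-/- Poly-E. The unadjusted p of the model was 0.155, and 0.058 with the replicate block (edgeR). In Ortho-E Ppox overlapped, at 0.131% ± 0.00228 (SD, n = 4) and 0.132% ± 0.00206 (SD, n = 4). Within replicates 1 and 2, Alas2 was lower in Ypel4-/- by -0.24 (log2, Poly-E) and -0.20 (Ortho-E). Within replicates 3 and 4 it was higher, by 0.05 and 0.06. For Alad in Ortho-E the genotype difference was -0.44 within replicates 1 and 2 and -0.03 within 3 and 4. Each side is a mean of 2 libraries without a spread, and Ypel4-/- replicates 1 and 2 include the doubted mouse 2. In Poly-E the Alas2 value of Ypel4-/- was lower in replicate 1 (3068 against 4474 CPM) and higher in replicate 2 (3691 against 3548).

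**Figure D5:**
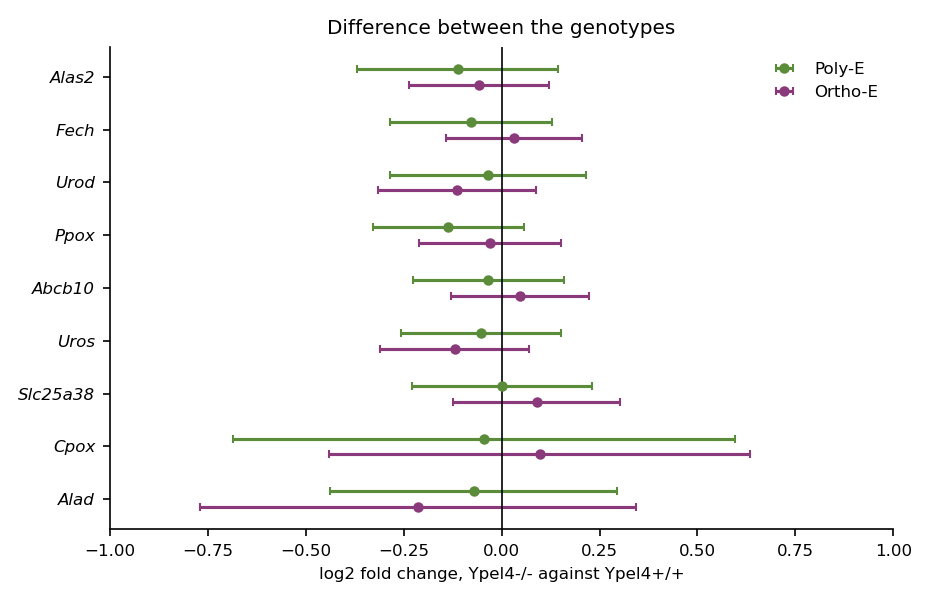
Log2 difference of Ypel4-/- from Ypel4+/+ with edgeR's 95% confidence intervals for the 9 genes in Poly-E (green) and Ortho-E (purple), n = 4 libraries a group. All intervals hold 0, and those of Cpox and Alad are the widest.

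The difference between the populations was compared between the genotypes with an interaction term over all 16 libraries. It ran from -0.16 (log2, Alad) to 0.12 (Cpox) and was called for none of the 9. Over all 13318 genes, edgeR called 0 (0%) and DESeq2 1, while the unadjusted p was below 0.05 for 363. None of the 9 was among the 363.

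Genes that work beside the 9 were taken as lists. The counts called in each of the 4 lists are to be read against the shares of all genes. With TMM these were 26.4% higher and 32.1% lower in Ypel4+/+, and 29.5% and 31.5% in Ypel4-/- mice. On library totals they were 10.4% and 60.3%, and 11.2% and 60.9%. No list was tested as a set, and a count near these shares does not set a list apart. Of 14 mitochondrial partners of heme synthesis, 5 were higher and 6 lower in Ortho-E in Ypel4+/+ and 6 and 5 in Ypel4-/- mice, with a median of -0.33 and -0.19 (log2) where all genes had -0.19 and -0.09, and on library totals 4 were higher in each genotype and 10 and 9 lower. Slc25a37 (mitoferrin-1, the erythroid mitochondrial iron importer) rose by 1.78 and 2.08 (log2; 0.50 and 0.66 on library totals), from 5701 to 18885 CPM in Ypel4+/+ mice. Slc25a39, a mitochondrial glutathione carrier, rose by 2.39 and 2.57 (1.11 and 1.15), and Fam210b, which aids iron delivery to ferrochelatase, by 1.65 and 1.71 (0.37 and 0.29). Slc25a28 (mitoferrin-2) fell by 1.95 and 1.47 on the log2 scale and Tmem14c, needed for porphyrin import into mitochondria, by 1.08 and 1.16, from 348 to 159 CPM in Ypel4+/+ mice. Slc25a28 was at low levels, from 8.31 to 1.97 CPM in Ypel4+/+ mice, with 24 counts over all Ypel4+/+ Ortho-E libraries together. The erythroid iron importer and its widely expressed relative thus went in opposite directions, the latter at few counts.

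Clpx, a mitochondrial unfoldase that acts on ALAS enzymes, rose by 0.85 and 1.18 (log2), but was at -0.43 and -0.24 on library totals. Abcb6, a porphyrin transporter, was at 0.38 in Ypel4+/+ (adjusted p = 0.116, and 0.0396 with the replicate block) and rose by 0.86 in Ypel4-/- mice (adjusted p = 0.000132, edgeR), and was at -0.91 and -0.55 on library totals. Its difference was not called by the interaction. Alas1, the housekeeping synthase, was nearly absent, with at most 1.82 CPM in any library.

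Of 10 genes of glycine and succinyl-CoA supply, 2 were higher and 2 lower in Ypel4+/+ and 2 and 1 in Ypel4-/- mice, and on library totals 0 were higher and 8 lower in each genotype (median -0.17 and -0.04 with TMM). Slc6a9, the plasma membrane glycine transporter GlyT1, rose by 0.98 and 1.27 (log2), with -0.31 and -0.14 on library totals. Sucla2, a subunit of succinyl-CoA synthetase, was lowest at -0.88 (adjusted p = 0.0223, edgeR) in Ypel4+/+ mice and was not called in Ypel4-/- mice (-0.47). Of 13 tested genes of iron-sulphur cluster assembly (of 14 listed), 7 were higher and 4 lower in Ypel4+/+ and 7 and 3 in Ypel4-/- mice (median 0.53 and 0.60), and on library totals 3 were higher and 6 lower in each. Iscu, the scaffold protein on which the clusters are built, rose by 2.91 and 2.96 (1.63 and 1.54 on library totals).

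Of 9 tested genes of heme breakdown, export and binding (of 11 listed), 5 were higher and 2 lower in Ypel4+/+ and 6 and 1 in Ypel4-/- mice (median 1.00 and 1.12), and on library totals 2 were higher and 4 lower in each. Slc48a1 (HRG1, which moves heme out of lysosomes) rose by 2.53 and 2.72 (log2; 1.25 and 1.30 on library totals). Hmox2, the constitutive heme oxygenase, was lowest in Ypel4+/+ mice at -1.62 and was not called in Ypel4-/- mice (-0.74), from levels of a few CPM. Blvra (biliverdin reductase A), named after its values were seen, was the gene called lower in both genotypes, by -1.38 and -1.91 (adjusted p = 5.68e-07 and 1.34e-09, edgeR; lower on library totals as well), from 25.6 to 9.39 CPM in Ypel4+/+ mice. Hmox1 was called higher (1.19 and 1.32, but -0.09 and -0.09 on library totals) at 1.7 and 3.8 CPM in Ypel4+/+ Poly-E and Ortho-E, and Flvcr1, a heme exporter, was at 0.9 and 1.3 CPM and not called. No gene of these 4 lists was called between genotypes or by the interaction.

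Likeness of pattern was measured as the root mean square difference of log2 CPM, each gene centred on its own mean, over the 16 libraries and 4835 genes with a mean of at least 10 CPM. The nearest gene to Ppox was Abcb4 (0.0546), then Stom and Mark3, and to Alas2 it was 1300017J02Rik (0.0635), then Zc3hav1 and Dcaf6. Among the 3 genes nearest to Abcb10 were Dnase2a (0.0687) and Rab8b (0.0702). Slc25a38 was nearest to Ciapin1 (0.0639), St3gal1 and 1700037H04Rik, and Uros to Rab1 (0.0648), Hnrnpc and Eef1d. Urod was nearest to Kel (0.0695), Dnajb2 and Stradb, and Fech to Dhrs11 (0.0699), Cabin1 and Slc1a5. Cpox and Alad had the most distant nearest genes, Stk11 (0.106), Rpl39 and Tmx1 for Cpox and Cenpa (0.136), Rps3a1 and Rpl27 for Alad. No member was among the 3 nearest of another. The closest pairs within the 9 were Uros and Abcb10 at 0.132, Ppox and Abcb10 at 0.169 and Urod and Fech at 0.183.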

How the data were processed

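Total RNA of sorted erythroblasts (4 libraries in each of 4 groups of genotype and population) was made into TruSeq libraries, which do not keep strand, and sequenced. The authors aligned the reads to GRCm38 with nf-core/rnaseq and deposited the counts that featureCounts 1.6.4 gave for each gene, as whole numbers without normalization and without reads that overlap several genes. Groups, replicate numbers and mice were taken from the labels. Depth ranged from 2670173 to 12451234 counts per library, and no library was a copy of another (lowest chi-square per degree of freedom 3.87 between libraries of a group).

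Counts were tested in R 4.3.3 with edgeR 4.0.16 (robust quasi-likelihood fit, TMM scaling) for genes whose counts in a fit summed to 10 or more, with Benjamini-Hochberg adjustment over all genes and a threshold of 0.05. Each fit set TMM over its own libraries, whereas CPM were scaled over all 16 libraries, and log2 CPM used a prior count of 2. The fits were checked on simulated data. P-values measure the spread between these mice only. Alternatives were DESeq2 1.42.0, its size factors, library totals, other filters, all 16 libraries, the replicate block, a term for replicates 1 and 2 against 3 and 4, counts without the globin genes and the omission of each library in turn. Leaving out Ypel4-/- mouse 2 was added after seeing the data.

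The members, lists and tests were chosen with earlier results of these data known. Named genes were the 9 members, Ypel4, the highest and lowest gene of each list in Ypel4+/+ Ortho-E against Poly-E, named partners (Alas1, Tmem14c, Slc25a37, Slc25a28, Abcb6, Fam210b, Clpx, Hmox1, Flvcr1) and the 3 genes nearest in pattern. Some genes that the rule names are not reported here.

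Poly-E and Ortho-E libraries of the same number come from the same mouse by their labels. Over 4835 genes, their deviations from the group means correlated at 0.486 to 0.651 in Ypel4+/+ and 0.0858 to 0.565 in Ypel4-/- mice, the lowest in mouse 2. Same-numbered libraries of different genotype correlated at 0.233 to 0.642 in Poly-E, each above 0.1, so that the blocked fit was compared there. Unlike numbers reached as much (1 with 2 at 0.424, 2 with 1 at 0.505, 3 with 4 at 0.601), which is the split of replicates 1 and 2 from 3 and 4 rather than evidence of pairs. Genotype differences are from the fit without the block, and the block changed no call of a member there.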

Additional observations from a re-analysis of the deposited data

Results flagged for a closer look

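Fech in Ypel4-/- Poly-E replicate 1 stood apart from the other libraries of its group, at 1731 CPM against 2058 to 2125 in the other 3. Its gap to the nearest library, relative to the range of the group, was just past the limit that about 1 of 20 groups pass by chance, and it was the only one past it of 40 groups tested. Fech was also lowest in replicate 1 of Ypel4-/- Ortho-E (6543 CPM).

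For Ppox on library totals, the small differences between the populations had opposite signs in the genotypes, and neither was called. The log2 difference of Ortho-E from Poly-E had a median of -0.075 over Ypel4+/+ mice (range -0.10 to -0.04, lower in 4 of 4) and of 0.020 over Ypel4-/- mice (range 0.00 to 0.03, higher in 4 of 4). The interaction was not called on that scale (log2 0.09, adjusted p = 1.00 from edgeR), nor after TMM scaling, where Ppox was higher in Ortho-E in all 8 mice.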

How the results depend on the processing

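The 7 members called higher in Ortho-E stayed at 7 in each genotype under every alternative run except library totals without TMM, where 3 were higher and 5 lower. There the log2 differences turned to -0.47 (Uros), -0.073 (Ppox, not called), -0.69 (Slc25a38) and -0.37 (Abcb10) in Ypel4+/+ and to -0.55 (Uros), -0.63 (Slc25a38) and -0.30 (Abcb10) in Ypel4-/- mice, where the median gene was at -1.45 and -1.47. The count of members called lower was 0, and moved to 1 with no filter in each genotype (Alad), to 2 in Ypel4+/+ and 1 in Ypel4-/- mice with the replicate block or a term for replicates 1 and 2 against 3 and 4, and to 1 in Ypel4-/- mice with all 16 libraries. With each library left out in turn it ranged from 0 to 1 in either genotype. The replicate block changed no call of another member. No member was called by genotype or by the interaction under any alternative. The numbers did not pair Ypel4+/+ with Ypel4-/- Ortho-E libraries (correlations -0.135 to 0.339), and there the block moved the count over all genes from 3 to 13, none of them a member. With globin genes left out of the totals, the 9 genes took 1.86% (Ypel4+/+) and 1.83% (Ypel4-/-) of Poly-E counts and 2.55% and 2.53% of Ortho-E counts.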
